A study of Mus musculus with 9 samples.

Results

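The 10 genes described here encode ligands of the tumor necrosis factor (TNF) superfamily: Tnfsf18, the gene of GITR ligand (GITRL), with Tnfsf4, Tnfsf8, Tnfsf9, Tnfsf11, Tnfsf13, Cd70, Lta, Ltb and Tnf. They were taken as the rows of the deposited expression table that carry these symbols, and each symbol was found on 1 of its 24459 rows. The table holds 9 RNA-seq libraries of splenic B cells from naïve mice aged 8 to 10 weeks, 3 from each of 3 subsets. FO B cells were follicular cells with high surface IgD, BDL were follicular cells with low IgD, both gated as B220+ IgMint CD21int CD23+ CD93-, and marginal zone (MZ) B cells were gated as B220+ IgMhi CD21hi CD23- CD93-. Each library came from an independent sort of spleens pooled from 5 mice, and the labels give no treatment. The labels name the strain C57/BL6 and the study's methods B10.PL, so the strain is uncertain. Libraries with the same replicate number carry the same date code in their titles. Whether they also share a pool of mice is not known here, so the 9 libraries may not be 9 independent pools. Values are FPKM, fragments per kilobase of transcript scaled to the mapped fragments of the library, so that levels of different genes can be compared per length.

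The study asked how IgD low B cells differ from FO and MZ B cells, and GITRL on B cells is central to that question. TNF superfamily ligands are mostly trimeric membrane proteins, some of which are also shed, and they act on receptors of the TNF receptor superfamily that signal through TRAF adaptors to NF-kB or through death domains. GITRL, OX40 ligand, the CD137 ligand, CD30 ligand and CD70 costimulate T cells, and GITR and OX40 are abundant on regulatory T cells. Lymphotoxin and TNF made by B cells maintain follicular dendritic cell networks and the compartments of the splenic white pulp, RANK ligand drives osteoclast formation and lymph node development, and APRIL acts on plasma cells.

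The libraries had the expression of B cells, and marker genes separated MZ B cells from FO B cells and BDL. Cd79b, a chain of the B cell receptor complex, lay between 593 and 1159 FPKM, and Pax5, the factor that maintains B cell identity, between 158 and 203 FPKM. Of 6 follicular markers, 5 had less expression in MZ than in FO B cells (among them Fcer2a, Cd55, Icosl and Ccr7), and 4 were higher in BDL than in MZ B cells (among them Fcer2a, Cd55 and Ccr7). Of 9 marginal zone markers, 7 were higher in MZ B cells relative to FO B cells (among them Cr2, Cd1d1, Cd9, S1pr3, Dtx1 and Cd36). Against MZ B cells, 6 of the 9 were called lower in BDL and 0 higher. Cd9, Cd36 and Plac8 were called higher in BDL than in FO B cells. S1pr3 was also higher there without overlap, whereas Cr2 and Notch2 were lower without overlap, and these were not called. Cr2 lay at 97.8 to 115 FPKM in BDL and 136 to 150 in FO, Notch2 at 43.5 to 48.0 and 56.4 to 64.8. Of the 6 follicular markers, 0 were called in BDL against FO B cells, although 2 had an adjusted p under 0.05 from limma without a 2-fold change. Cd55 (171 to 223 FPKM in BDL, 271 to 322 in FO) and Icosl (67.3 to 88.4 and 110 to 154) were lower in BDL without overlap. No row was found for Ighd, so IgD itself was not measured and the BDL label could not be checked by it. Each library summed to 446033 to 517208 FPKM, and the depth estimated from the steps between low values lay between 0.907 and 1.219 times that of FO replicate 1. The replicate 3 libraries had the highest sum over 9 myeloid markers in every subset (9.52 FPKM in FO, 12.6 in BDL and 11.7 in MZ, against 2.71 to 6.71 in the other libraries). BDL replicate 2 had the lowest mean correlation with the libraries of its own subset (0.889, against 0.900 to 0.916 elsewhere).

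The 10 ligands spanned a very wide range of levels. Ltb, the membrane anchored lymphotoxin beta chain, stood at rank 195 of all rows by mean FPKM (324 FPKM over the 9 libraries). Lta, the lymphotoxin alpha chain, followed with a mean of 14.8 FPKM and Tnf with 3.30 FPKM. The other 7 ligands lay under the mean of 0.5 FPKM that a row needed for the main test, from 0.351 FPKM for Tnfsf18 and 0.344 for Tnfsf9 through 0.168 for Tnfsf11 to 0.0480 for Tnfsf4, 0.0427 for Tnfsf13, 0.0360 for Tnfsf8 and 0.00262 for Cd70. The neighbouring pairs in this order that overlapped in the 9 libraries were those from Tnfsf18 downward. Ltb alone made up between 90.6% and 97.9% of the summed FPKM of the 10 genes. Fragments behind the low values could only be estimated, since the table holds no counts. For a transcript of 1 kb, 1 fragment was worth 0.0137 to 0.0184 FPKM, and 70.0% to 76.7% of low values were whole multiples of such a step to within 0.1, where 20% would be by chance. A smaller step also described the values, so the fragment numbers given here are approximate and at the low end, and they cover counting error only.

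**Figure D1:**
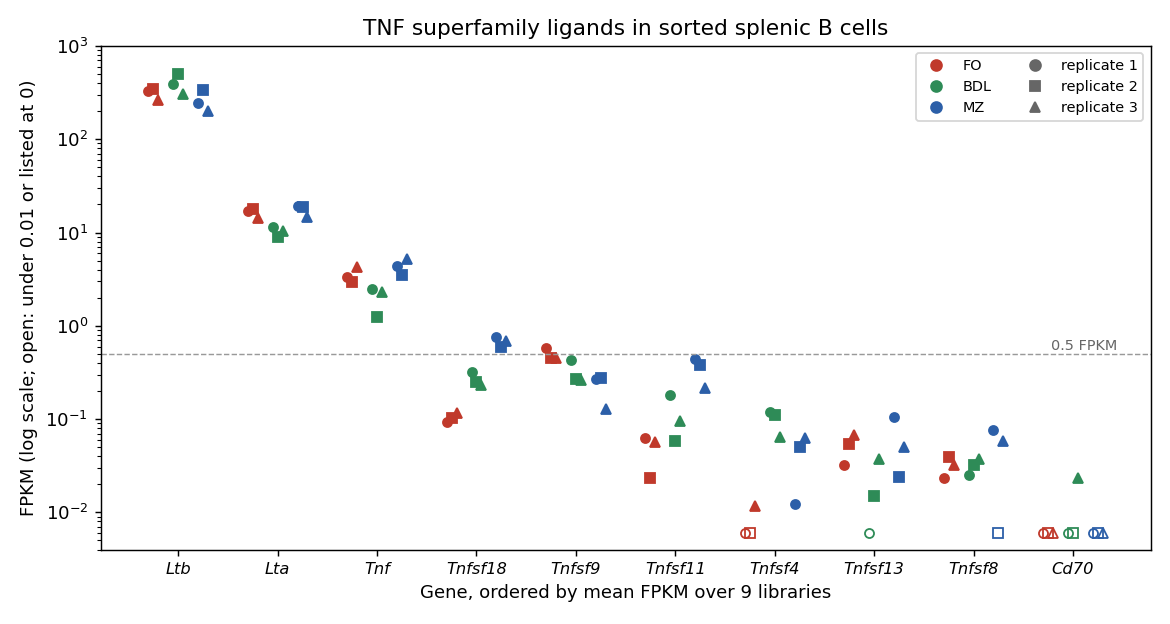
FPKM of the 10 ligand genes in the 9 libraries, on a log axis, with genes ordered by their mean and subsets in color (circle, square and triangle for replicates 1, 2 and 3). Open symbols at the bottom are values listed at 0 or under 0.01 FPKM, and the dashed line marks the 0.5 FPKM minimum of the main test. Ltb, Lta and Tnf lie above the line in every library, Tnfsf18 only in MZ B cells, Tnfsf9 only in FO replicate 1, and Cd70 is above 0 in a single BDL library.

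Several of the genes lie beside each other in the genome. On chromosome 17 of NCBIM37 (mm9), Ltb (35331384 to 35333265, plus strand), Tnf (35336326 to 35338952, minus strand) and Lta (35340110 to 35342296, minus strand) form the TNF locus, with gaps of 3.06 kb between Ltb and Tnf and of 1.16 kb between Tnf and Lta. Tnfsf9 (57244808 to 57247180, plus strand) and Cd70 (57285420 to 57289200, minus strand) are neighbours further along that chromosome, with 38.2 kb between them. On chromosome 1, Tnfsf18 (163424786 to 163435421, plus strand) starts 76.45 kb downstream of Tnfsf4 (163325581 to 163348337, plus strand), and Fasl follows. Tnfsf8 (63492342 to 63522381, minus strand) is on chromosome 4, Tnfsf13 (69496348 to 69499286, minus strand) on chromosome 11 and Tnfsf11 (78677252 to 78707850, minus strand) on chromosome 14. All 10 are annotated as protein coding.

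Promoter windows of 7 of the 10 genes were found in RefSeq (build GRCm38.p6) and matched exactly to 1 place each in NCBIM37. Those of Tnfsf18, which encodes GITRL, and of the adjacent Ltb, Tnf and Lta are shown. Of these neighbours, Lta and Tnf were lowest in BDL, whereas Ltb had its highest mean there and overlapped between subsets. Each runs 5′ to 3′ on the strand of its gene and ends just before the first annotated base. Capitals mark TATAAA and, in Ltb, a match to the NF-kB consensus.
Tnfsf18, chr1:163424538-163424785, plus strand: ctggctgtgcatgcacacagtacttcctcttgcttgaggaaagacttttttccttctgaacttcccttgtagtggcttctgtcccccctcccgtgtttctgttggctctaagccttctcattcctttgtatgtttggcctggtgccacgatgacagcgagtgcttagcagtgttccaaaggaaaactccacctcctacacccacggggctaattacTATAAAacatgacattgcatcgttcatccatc
Ltb, chr17:35331202-35331383, plus strand: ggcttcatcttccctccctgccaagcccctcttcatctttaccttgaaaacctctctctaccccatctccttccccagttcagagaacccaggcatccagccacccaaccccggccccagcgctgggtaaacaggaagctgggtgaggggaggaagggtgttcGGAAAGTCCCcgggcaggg
Tnf, chr17:35338953-35339202, minus strand: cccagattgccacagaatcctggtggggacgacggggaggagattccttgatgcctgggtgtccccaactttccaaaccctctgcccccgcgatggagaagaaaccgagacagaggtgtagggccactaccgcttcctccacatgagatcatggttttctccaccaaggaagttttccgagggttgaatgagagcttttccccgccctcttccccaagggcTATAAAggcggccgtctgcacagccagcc
Lta, chr17:35342297-35342546, minus strand: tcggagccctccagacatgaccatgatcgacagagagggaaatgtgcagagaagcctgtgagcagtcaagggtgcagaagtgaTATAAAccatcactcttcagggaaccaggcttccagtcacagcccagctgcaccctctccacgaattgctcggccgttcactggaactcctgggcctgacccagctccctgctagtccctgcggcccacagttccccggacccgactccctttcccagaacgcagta
On both strands of these windows, TATAAA was found between positions -34 and -29 from the RefSeq start in Tnfsf18, between -29 and -24 in Tnf and between -167 and -162 in Lta. It was found in 12.4% of the 32851 RefSeq windows, counted up to the RefSeq start and without the cut at the first annotated base. The NF-kB consensus was found in Ltb, between -87 and -78 on the minus strand, and in 7.25% of all windows. These are matches of letters and were not tested as sites.

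Of the 10 ligands, Tnf, Tnfsf18 and Tnfsf11 passed the test across all genes in some comparison, the latter pair only without the FPKM minimum. Calls needed a limma adjusted p under 0.05 together with a 2-fold change on the log2(FPKM + 0.1) scale, which understates the change of genes near or under 0.1 FPKM. With the 0.5 FPKM minimum, 3 ligands were tested and Tnf in BDL against MZ B cells was the only call (lower in BDL, where 4.34% of all tested rows were called lower). In BDL against FO B cells 0 of the 3 were called (1.91% of all rows), and in MZ against FO B cells also 0 (8.92%). By unadjusted p under 0.05, Lta and Tnf passed in both comparisons with BDL, Ltb in BDL against MZ, and none of the 3 in MZ against FO (24.3%, 39.9% and 37.8% of all rows in BDL against FO, BDL against MZ and MZ against FO). Without a minimum, all 10 could be fitted among 18506 rows. Of these, 0 were called in BDL against FO B cells (1.63% of all rows). In BDL against MZ B cells 3 were called, Tnf, Tnfsf18 and Tnfsf11, all lower in BDL (3.76% of all rows lower). In MZ against FO B cells Tnfsf18 and Tnfsf11 were called, both higher in MZ (5.08% of all rows higher). An unadjusted p under 0.05 was reached by 4, 6 and 4 of the 10 in BDL against FO, BDL against MZ and MZ against FO (20.6%, 32.8% and 32.3% of all rows). An adjusted p under 0.05 alone was reached by 3, 4 and 3 of the 10 in the same order (5.93%, 21.2% and 21.3% of all rows), and with the minimum by 1, 2 and 0 of the 3 (7.73%, 28.1% and 27.1%). The median of the absolute log2 fold changes of the 10 was 0.50, 0.56 and 0.29 in the same order, beside 0.16, 0.21 and 0.20 over all rows.

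The libraries of both subsets did not overlap for 2 ligands higher and 3 lower in BDL than in FO B cells (18.6% and 8.95% of all rows without a minimum). For BDL against MZ B cells these were 1 higher and 4 lower (17.1% and 15.7%), and for MZ against FO B cells 3 higher and 1 lower (20.9% and 17.4%). With 3 libraries against 3, the exact permutation test cannot give a p below 0.1. The p-values of both tests measure the spread between libraries of a subset, each from pooled mice, and leave out the pairing by date code.

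**Figure D2:**
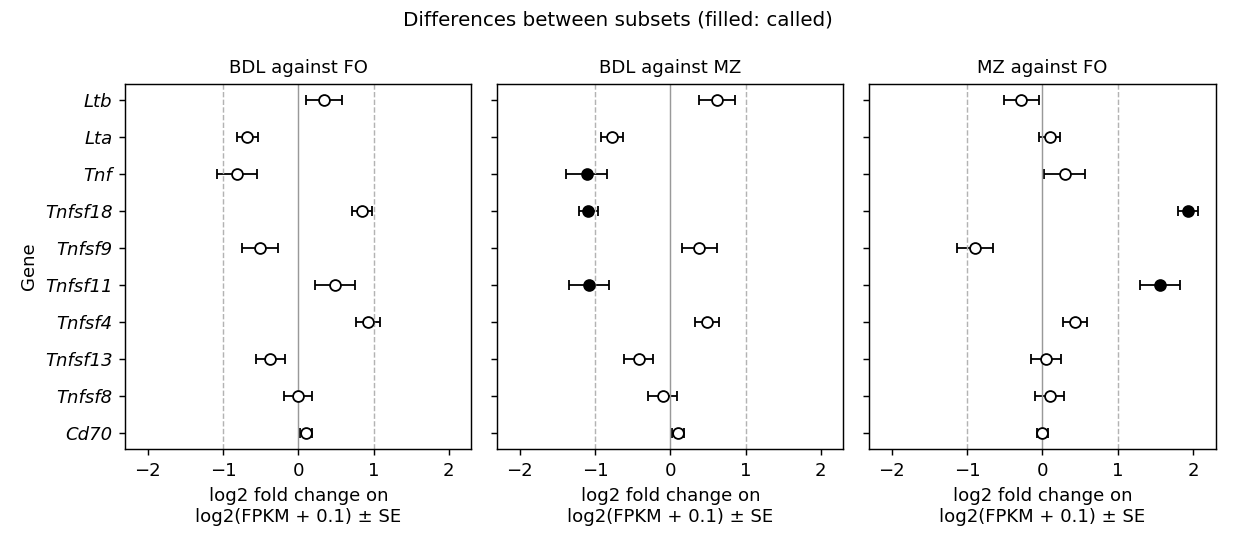
Log2 fold change of each ligand on the log2(FPKM + 0.1) scale (first subset minus second) with its standard error from limma, for the 3 comparisons of 3 libraries against 3. Dashed lines mark a 2-fold change and filled points are called. Ltb, Lta and Tnf come from the fit with the 0.5 FPKM minimum and the other genes from the fit without one, and the filled points are Tnf, Tnfsf18 and Tnfsf11 in BDL against MZ and Tnfsf18 and Tnfsf11 in MZ against FO.

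Tnfsf18, which encodes GITRL, was lowest in FO, intermediate in BDL and highest in MZ B cells. It was at 0.0938, 0.103 and 0.115 FPKM in FO replicates 1 to 3, at 0.317, 0.252 and 0.235 in BDL and at 0.765, 0.592 and 0.689 in MZ B cells. The subsets did not overlap in any comparison, and the spread within each was small beside the gaps. The means were 0.104 ± 0.0108, 0.268 ± 0.0432 and 0.682 ± 0.0866 FPKM (SD, n = 3), which stand for approximately 38, 106 and 246 fragments summed over the libraries of each subset. In these sorted pools, fewer cells with the transcript and less of it per cell cannot be told apart.

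MZ B cells had 6.56 times the mean Tnfsf18 FPKM of FO B cells (log2 fold change 1.93, SE 0.13, adjusted p = 4.80e-05 from limma, higher in 3 of 3 same-date pairs). They had 2.55 times that of BDL, in which it fell by 1.09 on the log2 scale against MZ B cells (SE 0.13, adjusted p = 9.25e-04 from limma, lower in 3 of 3 pairs). BDL had 2.57 times the mean FPKM of FO B cells, with ratios of 3.38, 2.45 and 2.04 in the same-date pairs. On the log2(FPKM + 0.1) scale this was 0.85 (SE 0.13, adjusted p = 0.0116 from limma), short of the 2-fold minimum and therefore not called. With 0.01 in place of 0.1 added it was 1.28 and called. Without FO replicate 1 or 2 the adjusted p of limma rose to 0.0604 and 0.0561.

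Tnfsf4, the gene of OX40 ligand and the upstream neighbour of Tnfsf18, was close to the limit of detection. The FO values were 0, 0 and 0.0117 FPKM, compared with 0.120, 0.111 and 0.0643 in BDL and 0.0122, 0.0498 and 0.0629 in MZ B cells. BDL lay above every FO and MZ library, although BDL replicate 3 and MZ replicate 3 almost touched. These values stand for approximately 1, 30 and 12 fragments summed over the FO, BDL and MZ libraries. On the log2(FPKM + 0.1) scale BDL exceeded FO B cells by 0.92 (SE 0.16, adjusted p = 0.0183 from limma), which was not called, and no fold is given against FO B cells because of their 0 values. The call was made with 0.01 added or without BDL replicate 3 (1.05, adjusted p = 0.0236 from limma). The differences of BDL from MZ (0.49, adjusted p = 0.0682) and of MZ from FO B cells (0.43, adjusted p = 0.104) did not pass the limma test. Dendritic cells are a known source of OX40 ligand, and the summed level of 7 dendritic cell markers was 1.77 to 2.89 FPKM in BDL, 2.25 to 2.85 in FO and 3.08 to 4.22 in MZ B cells. Most of that sum was Flt3 and Xcr1 in every library, and the markers did not move alike. From FO to BDL the means of Flt3, Xcr1 and Zbtb46 fell and those of Siglech, Itgax, Clec9a and Batf3 rose. Flt3 lay at 0.984 to 1.33 FPKM in FO and 0.692 to 0.889 in BDL, and Siglech at 0.0499 to 0.191 in FO and 0.199 to 0.456 in BDL. The part of dendritic cells in the Tnfsf4 values was not tested.

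Tnfsf9, the gene of the CD137 ligand, ran in the opposite direction to Tnfsf18. Its values were 0.572, 0.451 and 0.450 FPKM in FO, 0.426, 0.266 and 0.264 in BDL and 0.267, 0.273 and 0.129 in MZ B cells. FO B cells lay above both other subsets in every library, and BDL and MZ B cells overlapped. FO B cells had 2.20 times the mean of MZ B cells, and the log2 fold change of MZ against FO was -0.90 (SE 0.24, adjusted p = 0.0324 from limma), which did not reach 2-fold. It passed with 0.01 added, with quantile normalization, and without MZ replicate 1 or 2. The difference of BDL from FO B cells was -0.51 (adjusted p = 0.281 from limma) and that from MZ B cells 0.39 (adjusted p = 0.317). Tnfsf9 overlaps Gm11110 by 0.56 kb on the other strand, and the labels describe reads without strand, so that reads of the 2 genes cannot be told apart where they overlap. Gm11110 was at 2.28, 2.37 and 2.43 FPKM in FO, 1.53, 1.55 and 1.54 in BDL and 2.04, 1.77 and 1.67 in MZ B cells, also highest in FO B cells, and its part in the Tnfsf9 values was not tested.

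Since Tnfsf18 and Tnfsf9 differed in opposite directions, their ratio was also computed, after the values had been seen and as 1 of 5 ratios. Per 100 FPKM of Tnfsf9 there were 16.4, 22.8 and 25.6 FPKM of Tnfsf18 in FO, 74.3, 94.6 and 88.9 in BDL and 286, 217 and 533 in MZ B cells. The subsets did not overlap in this ratio, for which the exact permutation test gave p = 0.1 in each comparison, the smallest it allows. For FO against each other subset this outcome was fixed in advance, because both genes already separated there in opposite directions. The ratio therefore adds no support to the single genes.

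Tnfsf8, the gene of CD30 ligand, and Cd70, the ligand of CD27, were near 0 throughout. Tnfsf8 lay between 0.0235 and 0.0394 FPKM in FO, between 0.0249 and 0.0372 in BDL and at 0.0763, 0 and 0.0582 in MZ B cells. Its subsets overlapped in all 3 comparisons (adjusted p of at least 0.777 from limma). Cd70 was listed at 0 in 8 libraries and at 0.0236 FPKM in BDL replicate 3, approximately 1 fragment. Without MZ replicate 2, where Tnfsf8 is listed at 0, MZ B cells exceeded FO B cells by 0.34 (adjusted p = 0.0237 from limma) and BDL differed from MZ B cells by -0.35 (adjusted p = 0.0218), short of 2-fold in both on the log2(FPKM + 0.1) scale, with approximately 14 to 16 fragments in each remaining MZ library. For Cd70 a difference was not detectable at this depth.

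**Figure D3:**
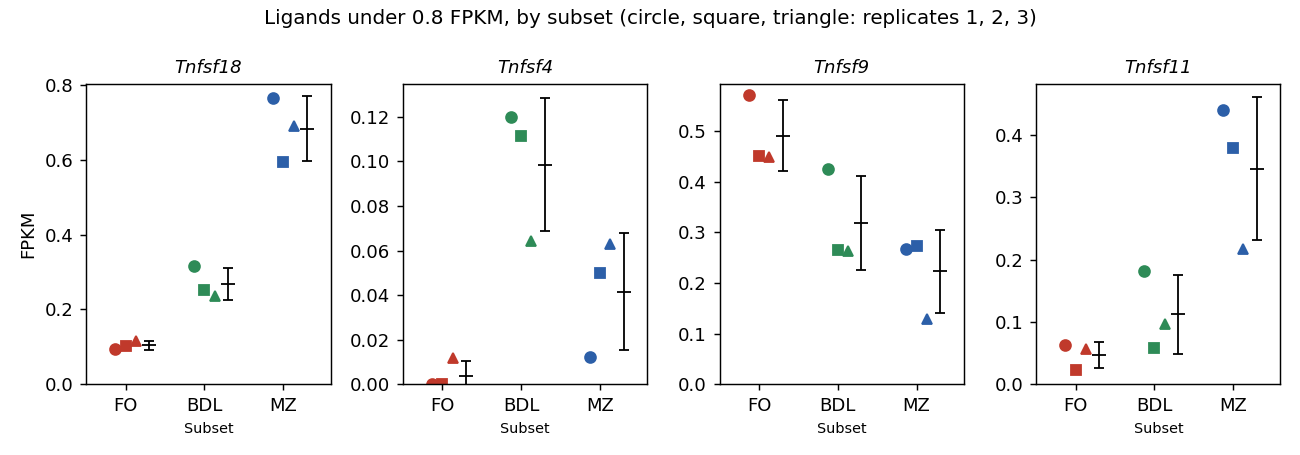
FPKM of Tnfsf18, Tnfsf4, Tnfsf9 and Tnfsf11 by subset, each panel on its own linear axis from 0, with points for the 3 libraries and a bar for the mean ± SD. Tnfsf18 is ordered FO, BDL and MZ B cells without overlap, Tnfsf4 is highest in BDL, Tnfsf9 is highest in FO and Tnfsf11 highest in MZ B cells.

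Tnfsf11, the gene of RANK ligand, was highest in MZ B cells. It was at 0.0625, 0.0236 and 0.0568 FPKM in FO, at 0.182, 0.0577 and 0.0964 in BDL and at 0.439, 0.379 and 0.218 in MZ B cells. MZ B cells lay above every other library, whereas BDL and FO B cells overlapped. The levels rest on approximately 19, 46 and 132 fragments summed over the FO, BDL and MZ libraries, so that folds against FO B cells are imprecise. The MZ mean of 0.345 ± 0.115 FPKM was 7.25 times that of FO B cells, 0.0476 ± 0.0210 (SD, n = 3), with a log2 fold change of 1.57 (SE 0.27, adjusted p = 0.00470 from limma, higher in 3 of 3 pairs). It was 3.08 times that of BDL, 0.112 ± 0.0637, in which it fell by 1.08 on the log2 scale (SE 0.27, adjusted p = 0.0252 from limma, lower in 3 of 3 pairs). This latter call was lost in 8 of 17 alternatives, among them those without BDL replicate 2 or 3 or MZ replicate 1 or 2, where the adjusted p of limma lay between 0.0644 and 0.0868. BDL against FO B cells gave 0.49 (adjusted p = 0.361 from limma).

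Tnfsf13, the gene of APRIL, rested on few fragments. It was at 0.0323, 0.0541 and 0.0671 FPKM in FO, 1.49e-06, 0.0151 and 0.0372 in BDL and at 0.105, 0.0237 and 0.050 in MZ B cells. These correspond to approximately 0 to 9 fragments per library, and the subsets overlapped in every comparison (adjusted p of at least 0.187 from limma). Tnfsf12 ends 0.47 kb from it on the same strand and the table also holds a row for the readthrough transcript of both, so that the authors' program could have divided their fragments among these rows.

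Of the abundant ligands, Lta was lowest in BDL. Its values were 16.9, 17.8 and 14.5 FPKM in FO, 11.5, 8.99 and 10.3 in BDL and 19.4, 18.9 and 14.6 in MZ B cells. Every BDL library lay below every other library, and FO and MZ B cells overlapped. BDL had 0.624 times the mean FPKM of FO B cells (log2 fold change -0.68, SE 0.14, adjusted p = 0.0273 from limma) and 0.581 times that of MZ B cells (log2 fold change -0.77, SE 0.14, adjusted p = 0.00477 from limma). Both were lower in 3 of 3 pairs, and neither reached 2-fold, so that neither was called. Against FO B cells the adjusted p of limma ranged from 0.0131 to 0.112 over 19 alternatives and exceeded 0.05 without FO replicate 1 or 2 or BDL replicate 2 or 3. MZ and FO B cells differed by 0.10 (SE 0.14, adjusted p = 0.665 from limma).

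Tnf, an inflammatory cytokine, followed the same order. It was at 3.33, 2.98 and 4.24 FPKM in FO, at 2.5, 1.24 and 2.33 in BDL and at 4.38, 3.48 and 5.22 in MZ B cells. BDL again lay below all other libraries, with replicate 2 well under the other BDL libraries. MZ B cells had 2.16 times the mean FPKM of BDL, in which Tnf fell by 1.11 on the log2 scale (SE 0.27, adjusted p = 0.0172 from limma, lower in 3 of 3 pairs) and was called. The call was lost without BDL replicate 2 (-0.81), without MZ replicate 1 (adjusted p = 0.0594) or replicate 3 (-0.98, adjusted p = 0.0664), with the 6 libraries of both subsets alone (adjusted p = 0.0539 from limma) and with 1 added (-0.84). Against FO B cells Tnf was at 0.574 times the mean FPKM in BDL, with a log2 fold change of -0.81 (SE 0.27, adjusted p = 0.110 from limma), and with the date code as a block the adjusted p was 0.0173. MZ against FO B cells gave 0.30 (SE 0.27, adjusted p = 0.473 from limma).

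Ltb, which holds lymphotoxin alpha at the membrane, had the opposite order of means. It was at 327, 341 and 264 FPKM in FO, at 388, 504 and 308 in BDL and at 244, 335 and 203 in MZ B cells. The subsets overlapped in all comparisons, although BDL was highest in each of the 3 date groups. The means were 311 ± 40.9, 399.9 ± 98.5 and 260.5 ± 67.9 FPKM (SD, n = 3). BDL against MZ B cells gave a log2 fold change of 0.62 (SE 0.23, adjusted p = 0.0838 from limma) and was higher in 3 of 3 same-date pairs. With the date code as a block the adjusted p of limma was 0.00463, still short of 2-fold, and without MZ replicate 2 it was 0.0314. BDL against FO B cells gave 0.34 (SE 0.23, adjusted p = 0.407 from limma, 0.0628 with the block) and MZ against FO B cells -0.28 (SE 0.23, adjusted p = 0.434, 0.0756 with the block).

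Because lymphotoxin beta and lymphotoxin alpha assemble into 1 membrane heterotrimer, their transcripts were also set against each other, after the values had been seen. Per 100 FPKM of Ltb there were 5.15, 5.23 and 5.48 FPKM of Lta in FO, 2.95, 1.79 and 3.34 in BDL and 7.95, 5.64 and 7.22 in MZ B cells. The subsets did not overlap in any comparison, with BDL at 2.69 ± 0.808, FO at 5.29 ± 0.169 and MZ B cells at 6.94 ± 1.18 (SD, n = 3), and an exact permutation p = 0.1 in each. Tnf per 100 FPKM of Ltb was 1.02, 0.874 and 1.60 in FO, 0.643, 0.246 and 0.756 in BDL and 1.80, 1.04 and 2.58 in MZ B cells, with BDL below all other libraries and FO and MZ B cells overlapping. The ratio of Tnf to Lta overlapped between all 3 subsets, at 16.7 to 29.3 FPKM of Tnf per 100 of Lta in FO, 13.8 to 22.7 in BDL and 18.4 to 35.7 in MZ B cells (exact permutation p of at least 0.5). A ratio within a library shows unequal change and not which gene changed. Lta and Tnf alone already lay lowest in every BDL library, and Ltb was highest in BDL in each date group. The separation of BDL in the ratios to Ltb therefore followed from values already seen and adds no support to the single genes.

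**Figure D4:**
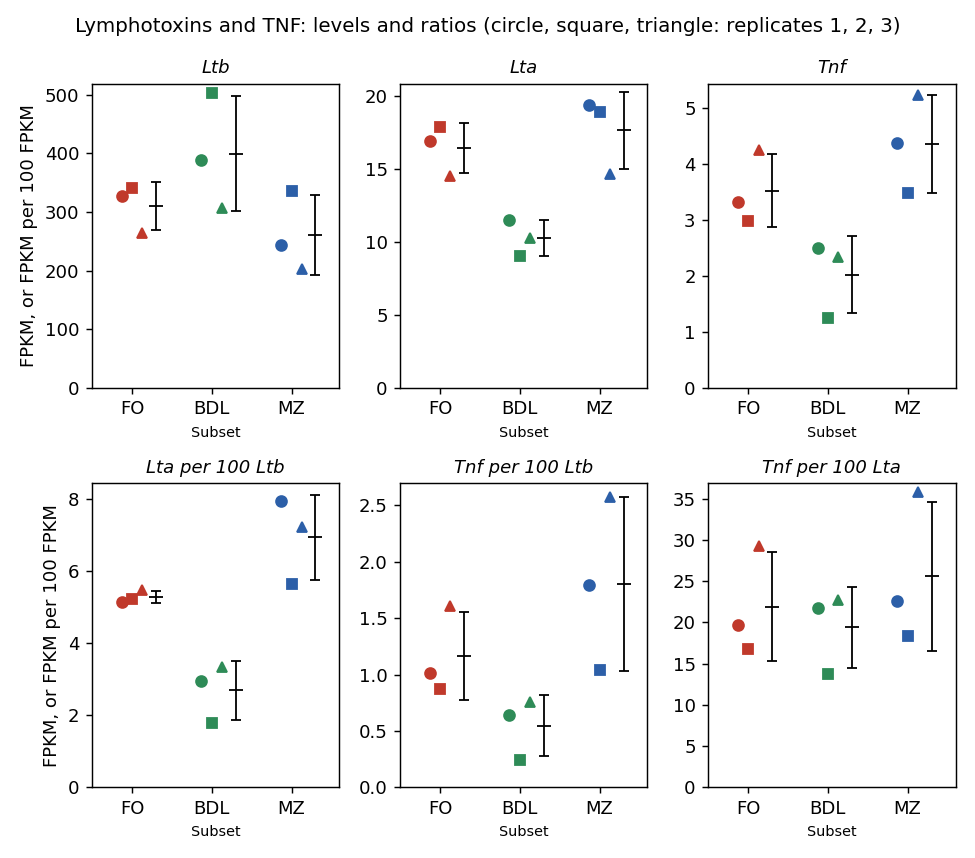
FPKM of Ltb, Lta and Tnf (top) and their ratios as FPKM per 100 FPKM of the second gene (bottom), by subset, on linear axes from 0, with points for the 3 libraries and a bar for the mean ± SD. Lta and Tnf are lowest in BDL and Ltb overlaps between subsets. Like Lta, the ratio of Lta to Ltb separates BDL (1.79 to 3.34) from FO (5.15 to 5.48) and MZ B cells (5.64 to 7.95).

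Of 8 further ligands of the superfamily, Tnfsf10, the gene of TRAIL, was the only one above the minimum, at 1.90 to 3.30 FPKM. It was not called, with a log2 fold change of -0.46 in BDL against MZ B cells (adjusted p = 0.0186 from limma). Tnfsf13b (BAFF) was at most 0.158 FPKM in every library, and Fasl had means of 0.0789, 0.134 and 0.188 FPKM in FO, BDL and MZ B cells.

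The B cells also expressed receptors for these ligands, and 6 of 13 were tested, of which limma called 0 in any comparison. At an unadjusted p under 0.05 there were 1 in BDL against FO, 2 in BDL against MZ and 1 in MZ against FO B cells. In BDL against FO B cells this was Tnfrsf4, the gene of OX40 (log2 fold change -0.71, adjusted p = 0.149 from limma). Its BDL values lay below all other libraries, with means of 4.16 FPKM in FO, 2.63 in BDL and 3.88 in MZ B cells. Tnfrsf18, the gene of GITR, was at 8.77, 9.20 and 7.37 FPKM in FO, 9.36, 11.7 and 9.11 in BDL and 14.4, 18.7 and 13.1 in MZ B cells. MZ B cells lay above all other libraries, while BDL and FO B cells overlapped. The log2 fold change of MZ against FO B cells was 0.85 (adjusted p = 0.00508 from limma) and that of BDL against MZ B cells -0.60 (adjusted p = 0.0245), both short of 2-fold. Per 100 FPKM of Tnfrsf18 there were 1.07 to 1.56 FPKM of Tnfsf18 in FO, 2.16 to 3.38 in BDL and 3.17 to 5.33 in MZ B cells, so that the transcript of the receptor exceeded that of the ligand in every library. Receptors for the ligands at the TNF locus differed in level. Tnfrsf14 lay between 7.77 and 16.0 FPKM. Tnfrsf1b, a TNF receptor without a death domain, lay between 4.50 and 14.6 FPKM and was highest in replicate 3 of each subset, whereas Tnfrsf1a, the death domain receptor of TNF, was at most at 0.128 FPKM and Ltbr, the lymphotoxin beta receptor, at 0.0273 FPKM. For RANK ligand, the receptor gene Tnfrsf11a was at most at 0.103 FPKM, and the decoy receptor gene Tnfrsf11b was listed at 0 in all 9 libraries. Of the APRIL receptors, Tnfrsf13b (TACI) lay between 22.5 and 43.7 FPKM, and Tnfrsf17 (BCMA) was listed at 0 in every FO and BDL library.

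Proteases and cofactors that release TNF superfamily ligands from the membrane included 1 called gene among 7 tested. At an unadjusted p under 0.05 there were 3 of the 7 in BDL against FO and 1 each in BDL against MZ and MZ against FO B cells. Rhbdf1, an inactive rhomboid protein that helps the TNF sheddase ADAM17 mature, was at 2.56, 3.0 and 2.75 FPKM in FO, 1.88, 0.940 and 1.54 in BDL and 19.3, 17.1 and 17.7 in MZ B cells. MZ B cells stood far above the other subsets, and BDL lay below FO B cells without overlap. The log2 fold change was 2.66 for MZ against FO (adjusted p = 4.47e-05 from limma), -3.59 for BDL against MZ (adjusted p = 1.25e-05) and -0.93 for BDL against FO B cells (adjusted p = 0.0345, not called). Rhbdf2, of the same list, exceeded Rhbdf1 in every library, with means of 28.4 FPKM in FO, 21.9 in BDL and 24.8 in MZ B cells, and was not called. Adam17 itself was at 21.7 ± 1.18 FPKM in FO, 25.8 ± 1.66 in BDL and 24.0 ± 1.78 in MZ B cells (SD, n = 3). BDL lay above FO B cells without overlap, but the gene was not called (0.25, adjusted p = 0.119 from limma). Mmp14, a membrane protease that can shed RANK ligand, lay under the minimum. In the fit without one it was higher in BDL, at 0.749, 0.693 and 0.788 FPKM, than in FO (0.124, 0.141 and 0.126) and MZ B cells (0.0903, 0.0406 and 0.0515), with log2 fold changes of 1.87 (adjusted p = 5.33e-04 from limma) and 2.40 (adjusted p = 2.0e-05).

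Of 14 TRAF and death domain adaptors, all tested, 1 was called lower in BDL than in FO B cells, 2 lower in BDL than in MZ B cells and 1 higher in MZ than in FO B cells. Traf1, an adaptor that is itself induced by NF-kB, accounted for 3 of these calls. It was at 12.7, 11 and 10.5 FPKM in FO, 6.57, 3.51 and 5.93 in BDL and 34.2, 31.8 and 34.5 in MZ B cells, without overlap. The log2 fold changes were 1.55 for MZ against FO (adjusted p = 8.78e-04 from limma), -2.67 for BDL against MZ (adjusted p = 5.21e-05) and -1.12 for BDL against FO B cells (adjusted p = 0.0179). The last of these was lost in 5 of 19 alternatives, among them those without FO replicate 1 or 2 and without BDL replicate 2 (-0.85). Traf4 fell in BDL against MZ B cells by 1.11 on the log2 scale (adjusted p = 8.74e-04 from limma), and without MZ replicate 2 by 1.0, just short of 2-fold. Traf5, which serves several costimulatory receptors, was lower in BDL without reaching 2-fold (-0.60 against FO B cells, adjusted p = 0.00318 from limma).

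Of 10 NF-kB subunits and inhibitors, limma called 0 in BDL against FO and in MZ against FO B cells and 1 in BDL against MZ B cells. At an unadjusted p under 0.05 there were 1, 9 and 7 in this order, and the median log2 fold change of the 10 was -0.02, -0.27 and 0.24. The call was Nfkbiz, an atypical IkB protein, at 19.7, 10.3 and 13.8 FPKM in BDL and 35.5, 29.2 and 31.0 in MZ B cells (log2 fold change -1.17, adjusted p = 0.00612 from limma, and -0.94 and not called without BDL replicate 2). Of 9 regulators of Tnf, Lta and Ltb mRNA stability, Zfp36l2 was the only one called. It was higher in BDL than in MZ B cells (1.04, adjusted p = 0.00639 from limma), and MZ B cells were below FO B cells (-1.16, adjusted p = 0.00352). The former fell short of 2-fold with upper quartile scaling (0.94), with quantile normalization (0.91) and without BDL replicate 2 (0.82) or MZ replicate 1 (0.93). Zfp36, the gene of tristetraprolin, which destabilizes Tnf mRNA, was abundant in all libraries (258 to 737 FPKM) and was not called.

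**Figure D5:**
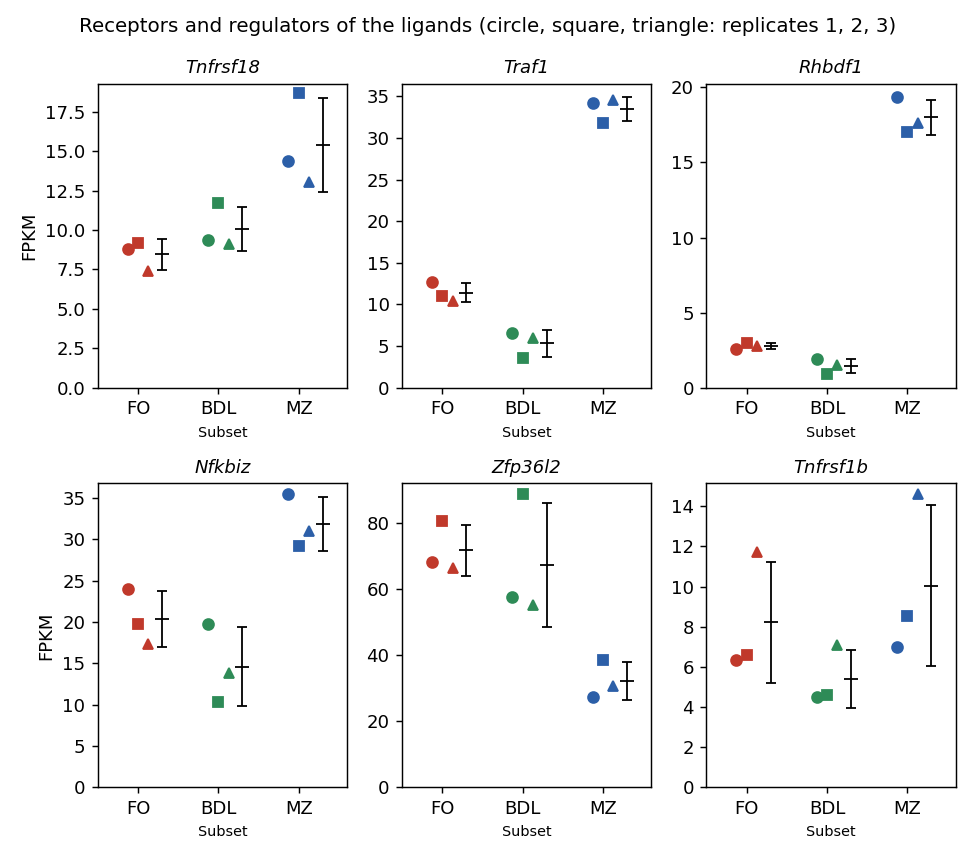
FPKM of Tnfrsf18, Traf1, Rhbdf1, Nfkbiz, Zfp36l2 and Tnfrsf1b by subset, on linear axes from 0, with points for the 3 libraries and a bar for the mean ± SD. Rhbdf1 and Traf1 are highest in MZ and lowest in BDL without overlap, Zfp36l2 is lowest in MZ B cells, and Tnfrsf1b is highest in replicate 3 of every subset.

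The annotated neighbours of the called ligands were compared in the same way. Around Tnf, Lst1 and Nfkbil1 were not called, while Aif1, the neighbour of Ltb beyond Lst1, was higher in MZ than in FO B cells (1.21, adjusted p = 7.95e-04 from limma). Atp6v1g2, on the other side of Nfkbil1, was also called there (1.36, adjusted p = 0.0474 from limma), and lost the call in 12 of 19 alternatives. None of the tested neighbours of Tnfsf18 and Tnfsf11 was called. Among tested genes, those most like Tnfsf18 over the 9 libraries were Chn2, Mybl2 and Mcoln3, with a Pearson r of 0.99 each on the log2(FPKM + 0.1) scale. For Tnfsf11 they were Map3k5 (0.97), Tmbim1 (0.97) and Gm13152 (0.96), and for Tnf they were Cyp4f13 (0.98), Pigr (0.97) and Ttc39b (0.97). These correlations describe 9 libraries that fall into 3 subsets, and genes with any like difference between subsets share them.

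Genes of activated B cells and of other cells were counted beside the ligands. Of 12 immediate early genes, 6 were lower in BDL than in MZ B cells (Fosb, Jun, Egr2, Nr4a1, Nr4a2 and Atf3), and 0 were called by limma in BDL against FO B cells (5 at an unadjusted p under 0.05). In MZ against FO B cells 4 were higher and Ier2 was lower. Of 9 activation markers, Cd80 and Ccnd2 were called higher in BDL than in FO B cells and 0 were called lower. Among those not called there, Il2ra and Cd44 were higher in BDL without overlap, and Cd69 and Myc lower. Cd69 lay at 156 to 186 FPKM in BDL and 188 to 221 in FO, Myc at 102 to 109 and 116 to 141. Against MZ B cells, BDL were higher in Ccnd2 and Slamf1 and lower in Cd80, Cd86 and Myc. Of 5 plasma cell and 3 germinal centre markers tested, Sdc1 and Rgs13 were higher in BDL than in both other subsets. Prdm1 was highest in MZ B cells and Bcl6 lowest in them, in both cases against each other subset. Bcl6 was also lower in BDL (25.7 to 27.5 FPKM) than in FO B cells (29.0 to 34.4) without overlap, but not called. Irf4 lay lower in BDL (101 to 180 FPKM) than in MZ B cells (200 to 270) without overlap and was not called.

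Among markers of other cells, T cell genes that define the lineage were low, with Cd3e at 0.0284 to 0.406 FPKM and Cd4 at 0.0415 to 0.262 FPKM, and 2 of 10 T cell markers were tested. The summed level of the 10 was 151 to 187 FPKM in FO, 178 to 230.4 in BDL and 95.9 to 110.1 in MZ B cells, nearly all of it Cd2 (85.1 to 211 FPKM), which mouse B cells express. The 8 markers other than Cd2 and Lck were each at most at 0.797 FPKM. Lck, which B cells can also express, was higher in BDL than in both others. Among 5 myeloid markers tested, Emr1 was higher in BDL than in both others and Itgam higher in MZ than in FO B cells. Of 2 NK and innate lymphoid markers tested, MZ B cells had more Prf1 than each other subset, and 0 of 2 dendritic cell markers tested were called by limma or had an unadjusted p under 0.05. The summed level of the 9 NK and innate lymphoid markers was 2.66 to 7.05 FPKM in FO, 2.71 to 5.73 in BDL and 6.94 to 11.6 in MZ B cells. Most of the level in MZ B cells was Prf1, and without it the sums overlapped, at 1.33 to 5.19 in FO, 2.14 to 4.58 in BDL and 0.969 to 4.31 in MZ B cells. No marker of these lists was at 0 in all 9 libraries, and the part of such cells in the ligand values was not tested.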

How the data were processed

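The authors aligned the reads with TopHat2 2.1.0 to mm9 and computed FPKM with Cufflinks. They deposited 1 FPKM per gene and library, used here without further scaling. The Cufflinks version and gene annotation are not given in the sources used here. The labels describe single-end reads without strand, the study's methods a stranded kit. The authors' Cuffdiff table holds fold changes and p-values and was not used.

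After 0.1 had been added, FPKM were taken to the log2 scale, and the 11597 rows whose mean reached 0.5 FPKM were fitted in R 4.3.3 by limma 3.58.1 (a trended eBayes after lmFit) over all 9 libraries, with subset as the only term. Benjamini-Hochberg adjustment ran over all rows tested. Calls needed an adjusted p under 0.05 together with a fold change of 2 or more. Ligands under the minimum were taken from the same fit without a minimum (18506 rows). Single values were compared with two-sided exact permutation tests. The fit was tested on simulated data. Of the symbols, 271 occur on more than one row, none of them a ligand described here, and each row was kept.

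Depth was estimated from steps between low values, and gene positions came from GENCODE M1 on NCBIM37. Alternatives were other added constants and minimums, quantile normalization, upper quartile scaling, robust eBayes, eBayes without the trend, a block for the date code, the 6 compared libraries alone, no fold minimum, and each library left out. Combinations with no minimum were chosen after seeing the data. The date code in the titles pairs the libraries. The correlation across genes of same-date deviations from subset means was 0.147, 0.0491 and -0.0623 for BDL and FO, 0.1, 0.244 and 0.182 for BDL and MZ, and 0.0238, 0.0138 and 0.0077 for MZ and FO replicates 1 to 3.

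The ligands and the gene lists were chosen with earlier results of these data known. Named are the 10 ligands, list genes called in any comparison (at most 6 a list), receptors of called ligands, their 3 most correlated genes and their 2 nearest annotated neighbours on each side. Genes named outside this rule, such as Cd79b, Pax5, Cd2, Adam17, Mmp14, Traf5, Zfp36, Fasl, Tnfsf10, Gm11110, Aif1, Atp6v1g2 and other receptors, were chosen after their values were seen. A list gene that meets this rule is not reported here. Figures were drawn with matplotlib 3.10.9.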

Additional observations from a re-analysis of the deposited data

How the results depend on the processing

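No result changed direction past a threshold. The date code as a replicate block changed no ligand call, although the adjusted p of Tnf in BDL against FO and of Ltb in BDL against MZ B cells passed under 0.05 without a 2-fold change (Tnfsf18 adjusted p = 0.0158, 0.00225 and 3.19e-04 from limma for BDL against FO, BDL against MZ and MZ against FO), and the genes called became 247, 942 and 1069. With no fold minimum, 896, 3255 and 3141 genes passed in the same order instead of 221, 905 and 1035, and with 1 added, 94 in BDL against FO and 674 in MZ against FO B cells. Leaving out 1 library gave 166 to 221, 883 to 960 and 971 to 1067 genes. The 1 ligand called in BDL against MZ B cells (of 3 above the minimum) became 0 with 1 added or with the 6 compared libraries alone, 2 with no fold minimum, and 0 to 1 with 1 library left out. With no minimum of FPKM, so that all 10 ligands were tested, it became 3. BDL against FO B cells went from 0 to 1 with no fold minimum, and MZ against FO B cells from 0 of 3 to 2 of 10 with no minimum of FPKM.

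Among all 10 ligands with no minimum, BDL against FO B cells went from 0 to 2 with 0.01 added, to 3 with no fold minimum and to 0 to 1 with 1 library left out (Tnfsf4 without BDL replicate 3). BDL against MZ B cells went from 3 to 0 with 1 added, to 1 with the 6 libraries alone or quantile normalization, and to 1 to 3 with 1 library left out (1 without BDL replicate 2 or MZ replicate 1). MZ against FO B cells went from 2 to 4 with 0.01 added, to 0 with 1 added and to 2 to 3 with 1 library left out. The log2 fold change of Tnfsf18 became 1.28 in BDL against FO B cells with 0.01 added, -0.41 with 1 added and -0.90 with quantile normalization in BDL against MZ B cells, and 0.61 with 1 added in MZ against FO B cells, where the constant added exceeds the level of the gene. Depth limits Tnfsf4, Tnfsf8, Tnfsf13 and Cd70, and Tnfsf11 in FO B cells, and the choice of added constant limits every fold change under 0.5 FPKM.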
